A study of Mus musculus with 9 samples.

Results

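Celastrol treatment was compared with untreated occlusion in the ischemic brain hemisphere, in 6 of the 9 libraries of the series. The 3 libraries from mice with transient middle cerebral artery occlusion (tMCAO) and celastrol were set against the 3 libraries from mice with tMCAO alone. Of 55385 gene rows, 16982 were kept because their FPKM (fragments scaled by transcript length and by the mapped fragments of the library) reached 0.5 in 3 or more of the 9 libraries. The mice were male C57BL/6 animals, 8 to 10 weeks old. Both occluded groups had a filament in the right middle cerebral artery for 90 min before reperfusion. The celastrol group also received 4.5 mg/kg of the compound into the peritoneum as reperfusion began. The labels do not say whether the untreated tMCAO mice received a vehicle, how long after reperfusion tissue was taken, or how many animals a library holds. The sham group, which had the surgery without the occlusion, entered the same fit and gives the level without occlusion. The hemisphere holds both the infarct and tissue outside it, so each value is an average over them.

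Celastrol is a triterpenoid from the roots of the thunder god vine. It is known to react with protein thiols, to disturb the HSP90 and CDC37 chaperone pair, to activate the heat shock factor HSF1 and to inhibit the proteasome and the kinase that activates NF-kappaB. In the ischemic brain, HSF1 drives chaperones, NRF2 drives antioxidant genes, and NF-kappaB drives cytokines in microglia, astrocytes and endothelium. Since a hemisphere is a mixture of cells, fewer cells of a type and less RNA per cell cannot be told apart in any value below.

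Libraries held 60392960 to 75158625 estimated counts, and CPM below is the count relative to the library's total, with that total corrected for composition by TMM scaling in edgeR. Excitatory neuron markers summed to at least 3660 CPM and oligodendrocyte markers to at least 2833 CPM in each of the 9 libraries, as brain tissue would give. Celastrol replicate 2 stood apart. Scores on principal component 1, with 31.0% of the variance, ran from −58.7 to −25.8 in sham and from 16.99 to 58.1 after tMCAO. Celastrol replicates 1 and 3 scored 44.1 and 20.3, within the tMCAO range, whereas replicate 2 scored −23.2, just above the highest sham library, and had the highest score, 58.1, on component 3. For several list medians and described genes, though not all, the value without this library is given as well. Nothing says that the libraries of a group came from separate animals, so p-values measure only the spread between these libraries, which may be technical.

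No gene passed. At an adjusted p under 0.05 (edgeR, quasi-likelihood, Benjamini-Hochberg over 16982 genes), 0 genes were higher and 0 lower with celastrol, and the smallest adjusted p was 0.976. At an unadjusted p under 0.05, 382 genes were higher (2.25% of those tested) and 316 lower (1.86%), which together make 4.11%. The 3 celastrol libraries lay above all 3 tMCAO libraries in 633 genes (3.73%) and below them in 702 genes (4.13%), together 7.86%. If the 6 libraries were in random order in each gene, 10% of genes would lie so. The median log2 fold change over all genes was −0.00, the 5th and 95th percentiles were −0.62 and 0.57, and 514 genes lay beyond 1 in size. In the same fit tMCAO against sham had 14.9% of genes at an unadjusted p under 0.05 and celastrol against sham 8.51%. After adjustment, occlusion without the compound passed no gene either when set beside sham, with a smallest adjusted p of 0.0763 (edgeR). The smallest adjusted p of the celastrol libraries beside sham was 0.0323. Since the test called no gene even for the occlusion, 0 passing genes do not show that celastrol made no difference. All 3 comparisons share libraries. DESeq2, run as an alternative, passed 12 genes higher and 7 lower at an adjusted p under 0.05. Without tMCAO replicate 2, edgeR passed 2 genes. The other alternatives that were run gave 0.

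**Figure D1:**
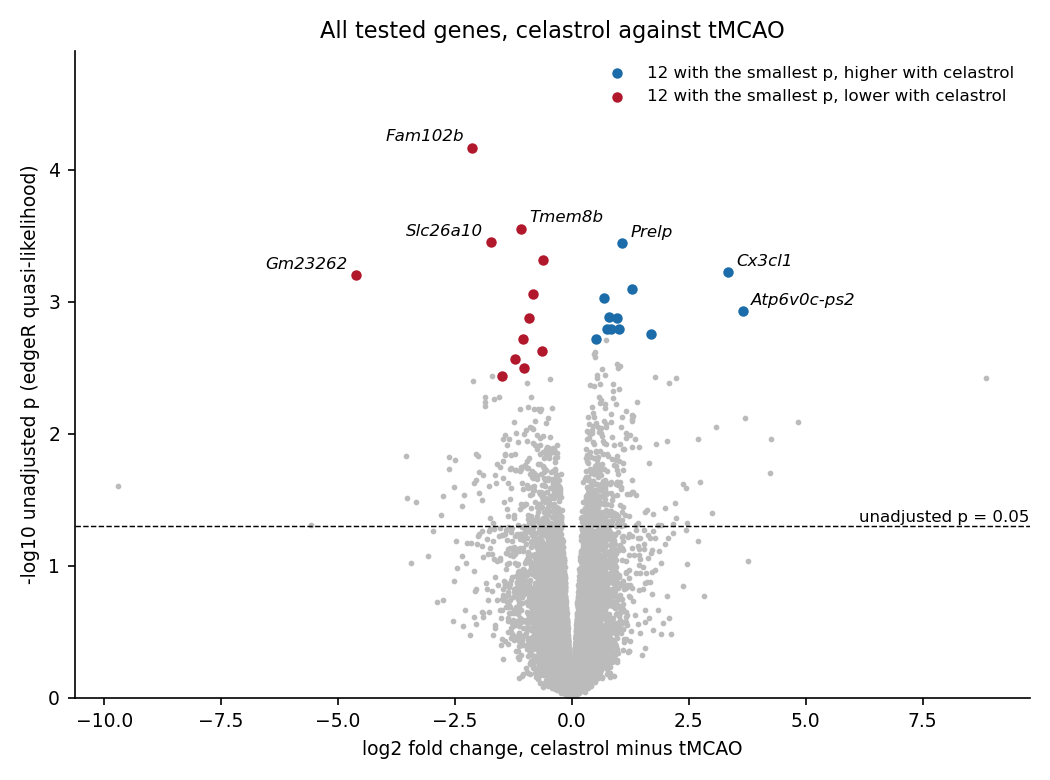
Each point is 1 of 16982 tested genes, with the log2 fold change of celastrol minus tMCAO on the x axis and −log10 of the unadjusted edgeR p on the y axis. The 12 genes with the smallest p in each direction are coloured. Fam102b has the smallest p, 6.82e-05, yet none passed after adjustment (smallest adjusted p 0.976).

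The 12 genes with the smallest p in each direction were named by p alone. In all of them the celastrol and tMCAO libraries did not overlap. A small p favours this, so the lack of overlap is no finding for them. It also favours extreme tMCAO or celastrol libraries, so the side on which sham lies is no finding for them either. Among the genes lower with celastrol, Fam102b had the smallest p. Fam102b, which encodes a protein of little-known function also called EEIG2, lies on chromosome 3 at 108970997 to 109027607 (minus strand, mm10). It measured 47.4, 36.8 and 81.5 CPM in tMCAO replicates 1, 2 and 3 and 12.9, 12.7 and 12.2 CPM with celastrol. The celastrol libraries were almost level with each other. In sham the gene measured 40.4, 55.9 and 70.2 CPM, so its level with celastrol lay below both other groups. The log2 fold change was −2.13 ± 0.30 (SE), with an unadjusted p of 6.82e-05 and an adjusted p of 0.976 by edgeR, against 3.04e-07 by DESeq2. With any 1 library left out it ran from −2.36 to −1.74. Its paralog Fam102a measured 80.6, 87.8 and 75.3 CPM after tMCAO and 85.7, 93.8 and 91.4 CPM with celastrol, a log2 difference of 0.15 ± 0.09 (SE). Fam102a was looked up after the values of Fam102b were seen. Another gene row overlaps Fam102b, and reads may be shared with it, since no source here says that counting used strand.

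Cx3cl1 had the widest change among the protein-coding genes of the 12 on the higher side. It encodes fractalkine, a chemokine that neurons carry on their surface and that microglia read through the receptor CX3CR1. It measured 38.8, 56.1 and 64.4 CPM after tMCAO and 339, 708 and 560 CPM with celastrol. Sham libraries ranged from 128 CPM in replicate 3 to 933 CPM in replicate 2, so the celastrol libraries lay inside the sham range. The log2 fold change of Cx3cl1 was 3.33 ± 0.64 (SE), a 10.1-fold difference, with an unadjusted p of 0.000595 and an adjusted p of 0.976 by edgeR and 1.51e-05 by DESeq2. Without celastrol replicate 2 it was 3.08. The receptor gene Cx3cr1, named after its values were seen, measured 5.03, 5.84 and 11.2 CPM after tMCAO and 4.27, 42.0 and 3.30 CPM with celastrol. Only celastrol replicate 2 was high, and the log2 difference of Cx3cr1 was 1.17 with that library and −0.96 without it. Cx3cr1 overlaps 8 other rows of the table.

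Promoter windows were read for the gene with the widest protein-coding difference of the 12 in each direction, though neither passed by edgeR. RefSeq windows on GRCm38.p6, 250 bases before to 50 after a start, matched 11366 of 16960 tested symbols (67%). The window of Fam102b is chr3:109027558-109027857 on the minus strand, with 73.3% G and C and 43 CpG. The window of Cx3cl1 is chr8:94771930-94772229 on the plus strand, whose start lies 171 bases from the start in the deposited table, with 64.7% G and C and 19 CpG.
Fam102b: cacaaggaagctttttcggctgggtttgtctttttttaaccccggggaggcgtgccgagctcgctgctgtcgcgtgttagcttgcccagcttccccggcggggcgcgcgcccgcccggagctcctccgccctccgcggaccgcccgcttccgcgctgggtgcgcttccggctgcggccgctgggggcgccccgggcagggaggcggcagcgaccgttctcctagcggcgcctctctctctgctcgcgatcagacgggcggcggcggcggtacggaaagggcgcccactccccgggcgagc
Cx3cl1: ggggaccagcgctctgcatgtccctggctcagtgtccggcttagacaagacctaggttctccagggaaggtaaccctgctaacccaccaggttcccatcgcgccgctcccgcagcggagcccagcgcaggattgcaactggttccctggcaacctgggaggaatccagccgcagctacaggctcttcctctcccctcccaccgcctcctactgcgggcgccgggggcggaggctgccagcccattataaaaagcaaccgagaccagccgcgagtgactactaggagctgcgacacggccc
On both strands, neither window held the heat shock pair GAANNTTC or TTCNNGAA (11.5% of all matched windows do), the antioxidant response element TGACNNNGC (14.5%), the cyclic AMP response element TGACGTCA (3.18%), the glucocorticoid response element (GNACA and TGTNC with 3 bases between, 0.343%), the E-box CACGTG (9.91%) or a kappaB motif (5.09%). The 3-unit heat shock element, GAANNTTC followed by NNGAA, contains both forms of the pair and is in 0.378% of all windows. These letters describe the windows only.

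On the lower side 11 further genes were named, of which 0 passed by edgeR. Tmem8b, a transmembrane protein gene, measured 95.7, 70.0 and 67.6 CPM after tMCAO and 29.6, 38.9 and 40.6 CPM with celastrol, against 32.6, 44.4 and 39.2 CPM in sham. Its tMCAO libraries lay above all 6 others, and the log2 fold change was −1.10 ± 0.19 (SE; unadjusted p = 0.00028, adjusted p = 0.976, edgeR). Slc26a10, of the family of anion exchangers, followed the same order, with 12.9, 12.4 and 8.54 CPM after tMCAO, 3.66, 2.68 and 3.92 CPM with celastrol and at most 3.75 CPM in sham (log2 fold change −1.72 ± 0.31, SE). Cirbp, a cold-inducible RNA-binding protein, measured 87.7, 60.9 and 50.2 CPM after tMCAO, 35.1, 32.3 and 37.9 CPM with celastrol and 34.7, 29.6 and 27.9 CPM in sham (−0.92 ± 0.20, SE). Hmgn2, a nucleosome-binding protein, was 0.61 lower on the log2 scale, at 29.97 to 35.3 CPM with celastrol against 45.0 to 53.5 CPM after tMCAO. Fip1l1, a subunit of the polyadenylation machinery, measured 94.1, 90.1 and 92.8 CPM after tMCAO and 67.4, 45.1 and 42.8 CPM with celastrol, while sham lay at 79.9 to 93.4 CPM. Gemin4, a member of the complex that assembles spliceosomal particles, differed by −0.63 and the G-protein-coupled receptor Gpr83 by −1.05. The receptor gene Npsr1, for neuropeptide S, differed by −1.49 (−0.96 without tMCAO replicate 3), the retrotransposon-derived gene Rtl9 by −1.21 and the cell junction plakin Evpl by −1.03. The small RNA gene Gm23262 had 83 counts over the tMCAO libraries and 3 over the celastrol libraries, a ratio of 27.8 with a 95% counting interval of 9.20 to 137.7. Gm23262 and Rtl9 reached the FPKM minimum in all 3 tMCAO libraries and in 0 celastrol libraries, so the filter itself kept them through the group where they are high. Of these 12 genes, DESeq2 passed Fam102b, Slc26a10, Tmem8b, Hmgn2, Fip1l1 and Cirbp.

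Of the 12 genes on the higher side 0 passed by edgeR. Prelp, a proteoglycan that ties basement membrane to connective tissue, had the smallest p on this side. It measured 10.5, 13.3 and 11.8 CPM after tMCAO and 22.6, 25.4 and 27.3 CPM with celastrol, against 16.8 to 25.6 CPM in sham. The log2 fold change of Prelp was 1.08 ± 0.19 (SE; unadjusted p = 0.000362, adjusted p = 0.976 by edgeR and 0.000851 by DESeq2). Shank3, a postsynaptic scaffold, measured 72.8, 92.6 and 84.1 CPM after tMCAO and 119, 132 and 169 CPM with celastrol, while sham lay at 143 to 193 CPM (0.75 ± 0.17, SE). Cacna2d1, the alpha2delta subunit that brings calcium channels to the membrane, measured 67.4 to 78.5 CPM after tMCAO and 96.1 to 167 CPM with celastrol (0.84 ± 0.19, SE). The log2 fold change was 1.69 for the adhesion molecule gene Kirrel2, 0.96 for the LIM-homeodomain factor gene Lhx2 and 0.68 for Arhgef3, which activates RhoA. It was 0.80 for the transmembrane protein gene Tmem178 and 0.51 for 2310061I04Rik. Without celastrol replicate 2 it was 1.35 for Kirrel2, 0.76 for Lhx2 and 0.60 for Tmem178. Arhgef3 measured 113 to 134 CPM with celastrol and 91.7 to 101 CPM in sham. It alone of these 12 genes lay above all sham libraries in each celastrol library. The demethylase gene Alkbh4 measured 1.42 to 2.09 CPM after tMCAO and 4.21 to 5.14 CPM with celastrol, and Gm21955 measured 5.37 to 7.64 CPM and 11.1 to 16.2 CPM. The pseudogene Atp6v0c-ps2 measured 1.07, 1.02 and 0.88 CPM after tMCAO and 2.31, 14.6 and 20.5 CPM with celastrol. Its reads may belong in part to its parent gene. DESeq2 passed all of these but Shank3 and Cacna2d1.

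**Figure D2:**
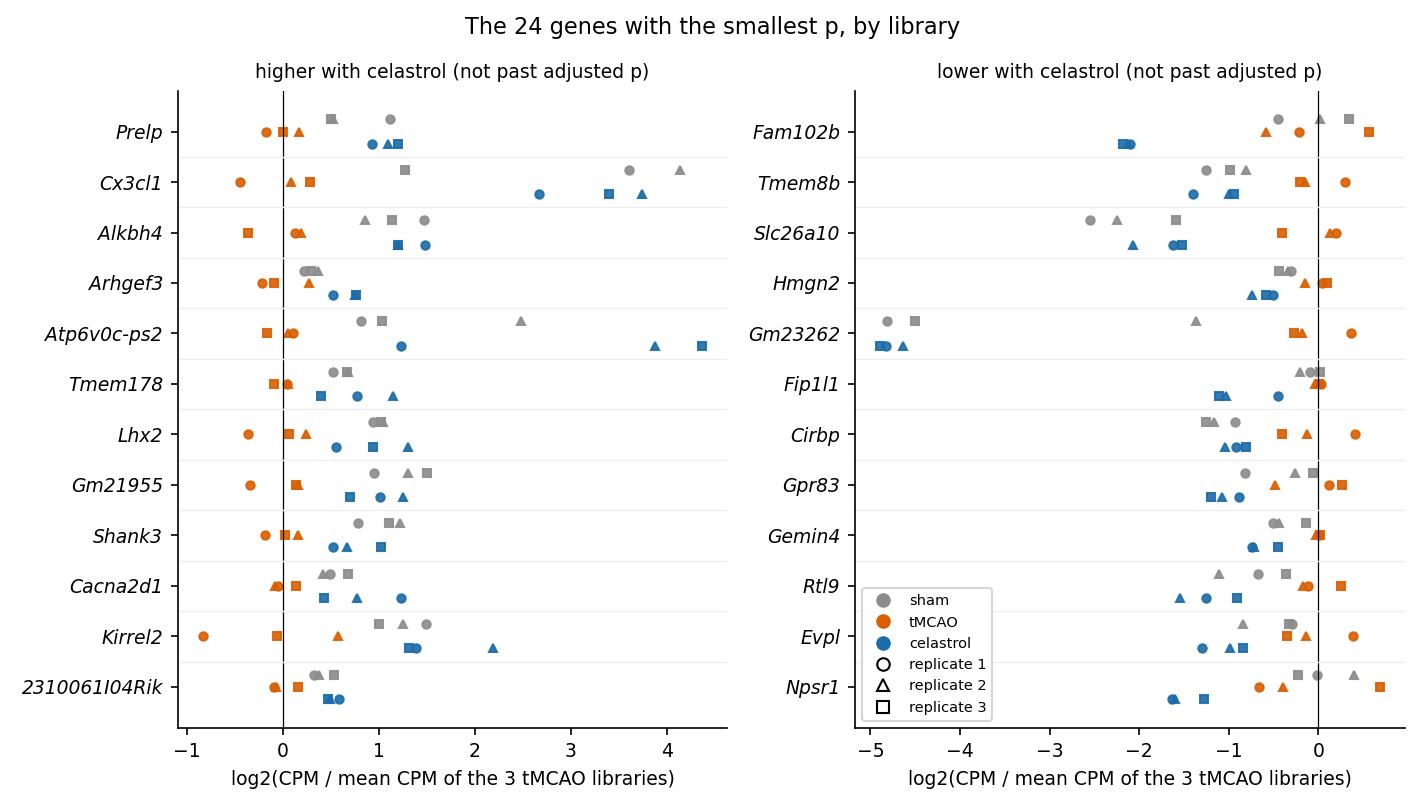
The 24 genes with the smallest p, 12 in each direction, with each library as a point at log2 of its CPM over the mean CPM of the 3 tMCAO libraries. Genes were chosen by p alone, and in all of these celastrol and tMCAO did not overlap. The choice favours extreme tMCAO or celastrol values, so the place of sham is no finding. For several genes, among them Tmem8b and Slc26a10, the sham points also lie clear of the tMCAO points. For Fam102b the celastrol points (12.2 to 12.9 CPM) lie below both other groups, as they also do for Hmgn2, Fip1l1, Gpr83, Npsr1 and Evpl.

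Of the 19 genes DESeq2 passed, 3 were outside these 24. Hbb-bt, a beta globin, is described with the blood genes. Atp6v0e, a subunit of the proton pump of lysosomes, measured 21.8, 26.2 and 25.9 CPM after tMCAO and 36.8, 35.1 and 32.1 CPM with celastrol. The pseudogene Gm18666 had 0 counts over the tMCAO libraries and 182 over the celastrol libraries, at least 60.3-fold higher against a floor of 3 counts for the tMCAO group, and sham replicate 1 was also at 0. It too would not have met the FPKM minimum without the celastrol libraries. The 2 genes that edgeR passed without tMCAO replicate 2 were Eif4e, the cap-binding translation factor, and Lsm12. Eif4e measured 47.6, 110 and 41.6 CPM in tMCAO replicates 1, 2 and 3 and 102, 102 and 112 CPM with celastrol. Lsm12 measured 6.00, 27.5 and 7.41 CPM after tMCAO and 29.8, 23.98 and 32.3 CPM with celastrol. In both genes tMCAO replicate 2 was at the celastrol level. Without it the log2 fold changes of Eif4e and Lsm12 were 1.23 and 2.09 (adjusted p = 0.0396 each, edgeR), and with it 0.66 and 1.08 (adjusted p = 0.976 each). Atp6v0e, Gm18666, Eif4e and Lsm12 came from alternatives and not from the rule for named genes.

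By class of transcript, 0 genes passed in any. Among 13633 protein-coding genes 7.59% had groups without overlap, among 1259 long non-coding genes 8.74% and among 1363 pseudogenes 9.68%, against 7.86% of all genes. Of the long non-coding genes, 57 lay higher without overlap and 53 lower, and of the pseudogenes 42 and 90. Gm20511, Gm47962 and Etohd2 were the long non-coding genes with the smallest p on the higher side. Etohd2 measured 4.003, 5.13 and 5.51 CPM after tMCAO and 9.80, 10.2 and 7.12 CPM with celastrol (log2 fold change 0.89 ± 0.24, SE). Gm20511 and Gm47962 did not exceed 0.68 CPM in any celastrol or tMCAO library, with log2 fold changes of 1.77 and 2.08. Gm47962 reached the FPKM minimum in 2 sham libraries, 1 celastrol library and 0 tMCAO libraries, so the filter kept it through the groups where it is high. On the lower side Snhg3, a host gene of small nucleolar RNAs, measured 4.11, 4.93 and 3.05 CPM after tMCAO and 2.55, 1.78 and 2.00 CPM with celastrol, against 1.92 to 2.04 CPM in sham (−0.93 ± 0.26, SE). 1700048O20Rik and A830082N09Rik differed by −0.95 and −0.52. Of 29 tested long non-coding RNAs with known roles, 1 lay higher and 2 lower without overlap, against 7.86% of all genes and 8.74% of the long non-coding ones, at a median of 0.04. That median lay between −0.08 and −0.03 with any 1 occluded library left out except celastrol replicate 1 (0.06). Malat1 measured 609, 480 and 419 CPM after tMCAO and 697, 702 and 530 CPM with celastrol, which overlap. Snhg3 overlaps 3 other rows and Etohd2 also 3.

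Reported direct or downstream targets of celastrol differed little. Of 22 listed, 19 were tested, 0 passed and 1 had groups without overlap (7.86% of all genes did), at a median log2 fold change of 0.01 and a range of −0.46 to 1.33. That 1 was Ikbkb, the kinase subunit that activates NF-kappaB, with 39.97, 40.2 and 38.1 CPM after tMCAO and 45.2, 49.6 and 44.3 CPM with celastrol (0.24 ± 0.10, SE). Nr4a1, an orphan nuclear receptor, marked the upper end of the range, with 28.2, 19.8 and 116 CPM with celastrol against 24.4, 15.7 and 25.4 CPM after tMCAO. Its difference rested on celastrol replicate 3. Stat3 marked the lower end, with 156, 59.2 and 86.2 CPM with celastrol against 176, 100.2 and 139.8 CPM after tMCAO, and its difference was −0.20 without celastrol replicate 2. The difference was 0.14 for Hsp90ab1, 0.25 for Hsp90aa1 (0.51 without celastrol replicate 2), 0.09 for their partner Cdc37 and 0.35 for Hsf1. It was −0.14 for the proteasome subunit Psmb1, 0.01 for Psmb5, 0.24 for the phosphatase Ptpn1, −0.26 for Hmgb1, −0.16 for Nfe2l2 (NRF2) and −0.06 for its inhibitor Keap1. For Prdx1, Prdx2, Sirt1 and Ppargc1a it lay between −0.11 and −0.03, and for Lepr and Il1r1 at 0.20 and 0.12. The sign of these last 6 and of Psmb5 turned when 1 library was left out.

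The chaperones under HSF1 are the classical response to celastrol. The list read for them also holds the heat shock factor genes Hsf1 and Hsf2, of which Hsf1 is among the reported targets too. Of 21 tested, 0 passed, 1 had groups without overlap (7.86% of all genes did), and 16 lay above 0, at a median log2 fold change of 0.24 against −0.00 for all genes. That 1 was Dnajb1, a co-chaperone of HSP70, with 57.9, 53.2 and 70.3 CPM after tMCAO and 100.8, 73.8 and 70.4 CPM with celastrol (0.43 ± 0.20, SE; unadjusted p = 0.0617, adjusted p = 0.976, edgeR). Its lowest celastrol library and its highest tMCAO library were almost level. The constitutive HSP70 gene Hspa8 differed by 0.31 and Ahsa1, which stimulates the HSP90 ATPase, by 0.29. The inducible HSP70 gene Hspa1a, named for its role after its values were seen, measured 84.8, 29.2 and 91.6 CPM after tMCAO and 271, 15.3 and 98.3 CPM with celastrol. Its copy Hspa1b measured 71.8, 34.1 and 108 CPM after tMCAO and 285, 23.9 and 114 CPM with celastrol. In both, celastrol replicate 1 was the highest of the 9 libraries and celastrol replicate 2 the lowest of the 6 occluded ones. The near-identical Hspa1a and Hspa1b may share reads. The summed level of all 21 list members was 8856, 6011 and 8145 CPM in celastrol replicates 1, 2 and 3, against 5937, 6378 and 6935 CPM after tMCAO. Without celastrol replicate 2 the median of the list was 0.34, and without celastrol replicate 1 it was 0.05.

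The promoter windows of Hspa1a and Hsph1 are shown because they carry the heat shock pair, in capitals, that the windows of Fam102b and Cx3cl1 lack. That of Hspa1a is chr17:34972107-34972406 and that of Hsph1 chr5:149636287-149636586, both on the minus strand (RefSeq, GRCm38.p6). In Hspa1a the pair begins 104 bases before the start.
Hspa1a: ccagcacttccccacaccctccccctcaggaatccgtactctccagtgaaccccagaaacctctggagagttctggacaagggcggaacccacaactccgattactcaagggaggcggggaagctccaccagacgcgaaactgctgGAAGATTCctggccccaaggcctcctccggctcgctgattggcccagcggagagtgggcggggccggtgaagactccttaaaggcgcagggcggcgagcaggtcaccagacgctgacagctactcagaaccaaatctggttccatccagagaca
Hsph1: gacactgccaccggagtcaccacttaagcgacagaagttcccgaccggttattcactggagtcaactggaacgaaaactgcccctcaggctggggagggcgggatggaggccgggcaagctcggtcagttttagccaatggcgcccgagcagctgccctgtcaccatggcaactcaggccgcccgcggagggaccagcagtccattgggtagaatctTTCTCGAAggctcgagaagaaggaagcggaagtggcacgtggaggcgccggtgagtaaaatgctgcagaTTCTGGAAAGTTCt
Hsph1, a nucleotide exchange factor of HSP70, holds 3 matches, of which the last 2 overlap and form the 3-unit heat shock element. It measured 384, 410 and 567 CPM after tMCAO and 879, 396 and 607 CPM with celastrol, which overlap (0.47 ± 0.28, SE). Of the 21 members of the chaperone list 16 had a window, fewer than 80%, so a share of the motif over the list is void.

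**Figure D3:**
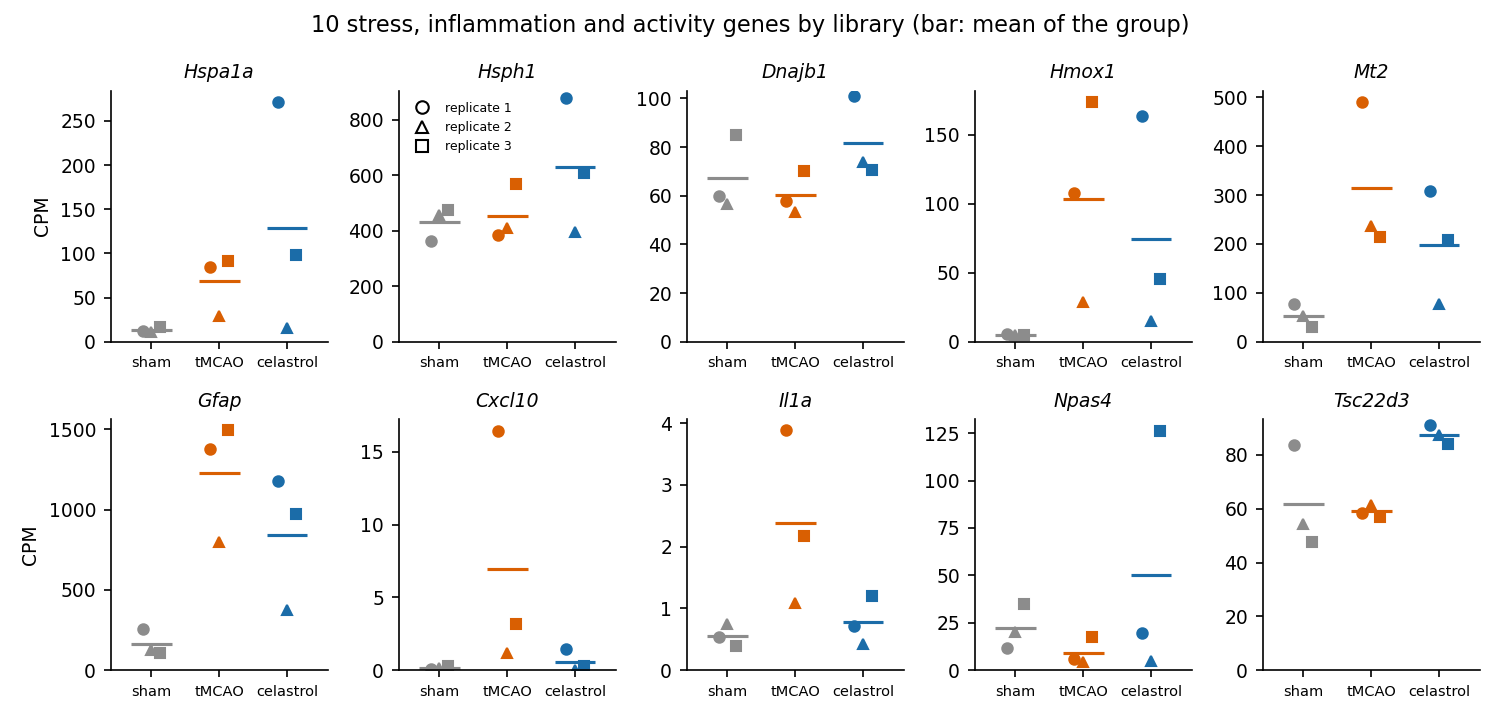
CPM of 10 genes in each library, by group, with replicates as marker shapes and the group mean as a bar; the y axes start at 0. Celastrol replicate 2 is the lowest occluded library for Hspa1a, Hmox1, Mt2 and Gfap, celastrol replicate 3 carries the level of Npas4, and the celastrol libraries lie clear of the tMCAO libraries for Tsc22d3.

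The other stress programmes gave smaller differences. Of 22 NRF2 and oxidative stress genes 0 passed and 0 had groups without overlap, and 18 lay below 0, at a median of −0.15. Without celastrol replicate 2 the median was −0.02 and without celastrol replicate 1 it was −0.38. Glutathione reductase (Gsr) differed by −0.30, thioredoxin (Txn1) by −0.21 and the metallothionein Mt2 by −0.66, the latter at 491, 237 and 214 CPM after tMCAO and 309, 77.4 and 208 CPM with celastrol. Mt2 differed by −0.28 with celastrol replicate 2 left out and by −0.18 with tMCAO replicate 1 left out. The heme-degrading enzyme Hmox1, named for its role after its values were seen, spanned 29.0 to 173 CPM after tMCAO and 14.7 to 164 CPM with celastrol, a spread far wider than the difference between the groups. Of 30 proteasome genes 1 lay higher and 2 lower without overlap, against 7.86% of all genes, at a median of −0.09 (−0.03 without celastrol replicate 2), and the core subunit Psma3 differed by −0.21. Of 23 genes of endoplasmic reticulum and integrated stress 16 lay above 0 and 7 below, and 0 had groups without overlap (median 0.10). Chac1 marked the upper end of this list at 0.65. Atf4, a transcription factor of the integrated stress response, marked the lower end at −0.43. It measured 150.2, 139 and 134 CPM after tMCAO and 136, 113 and 64.7 CPM with celastrol, which overlap.

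Most tested cytokine and interferon genes lay below 0, and 0 passed. Of 27 cytokine and chemokine genes 20 were tested and Il10 had 0 counts in all libraries. Of the 20, 15 lay below 0, 0 passed and 1, Cx3cl1, had groups without overlap (7.86% of all genes did). Their median log2 fold change was −0.67 (−0.30 without celastrol replicate 2, −0.43 when tMCAO replicate 1 was left out, −1.55 without celastrol replicate 1). Of these 20, 7 would not have met the FPKM minimum without the tMCAO libraries and 5 not without the celastrol libraries, so the filter itself favours differences here. Cxcl10, an interferon-induced chemokine, measured 16.4, 1.18 and 3.19 CPM after tMCAO and 1.48, 0 and 0.30 CPM with celastrol (−3.53 ± 1.38, SE; unadjusted p = 0.0309, adjusted p = 0.976, edgeR). The monocyte chemokine gene Ccl12 measured 5.22, 3.24 and 21.5 CPM against 3.38, 0.25 and 1.61 CPM, and interleukin 1 alpha (Il1a) 3.89, 1.09 and 2.17 CPM against 0.72, 0.43 and 1.20 CPM. Leaving out tMCAO replicate 1 moved Cxcl10 to −1.87 and Il1a from −1.60 to −1.06, and leaving out tMCAO replicate 3 moved Ccl12 from −2.51 to −1.27. In each of these 3 genes the highest celastrol library overlapped the lowest tMCAO library. Of 17 tested interferon response genes 15 lay below 0, 0 passed and 0 had groups without overlap, at a median of −0.68. That median was −0.42 without celastrol replicate 2, −0.41 with replicate 3 of either group left out, and −1.24 when celastrol replicate 1 was left out. Of these 17, 3 would not have met the FPKM minimum without the tMCAO libraries and 2 not without the celastrol libraries. Usp18, which removes the ubiquitin-like modifier ISG15, differed by −1.44, Ifit3 by −0.98 and the guanylate-binding protein gene Gbp2 by −1.37. Usp18 reached that minimum in 2 tMCAO libraries, 1 sham library and 0 celastrol libraries, so the filter favoured its difference. Of 20 NF-kappaB pathway and target genes 1, Ikbkb, had groups without overlap (7.86% of all genes did), at a median of −0.11. That median was 0.00 without celastrol replicate 2, 0.11 when tMCAO replicate 1 was left out and −0.26 when either celastrol replicate 1 or tMCAO replicate 3 was.

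Reactive astrocyte genes lay lower as well. Of 26 tested, 21 were below 0, 0 passed and 0 had groups without overlap, at a median of −0.55. The median moved to −0.14 when celastrol replicate 2 was left out, to −0.15 when tMCAO replicate 1 was, to −0.90 when tMCAO replicate 2 was, and to −1.12 when celastrol replicate 1 was. Of the 26, 7 would not have met the FPKM minimum without the tMCAO libraries. The filament gene Gfap, named for its role after its values were seen, measured 1380.3, 800.3 and 1495 CPM after tMCAO and 1176, 378 and 974 CPM with celastrol, against 109.7 to 253 CPM in sham. S1pr3, a receptor for sphingosine 1-phosphate, measured 46.3, 18.8 and 32.1 CPM after tMCAO and 19.2, 11.5 and 17.5 CPM with celastrol (−1.01 ± 0.31, SE). Ptgs2, the inducible cyclooxygenase, went the other way, with 46.9, 24.9 and 24.2 CPM after tMCAO and 68.5, 30.7 and 117 CPM with celastrol (1.17 ± 0.45, SE, and 0.63 without celastrol replicate 3). Among 14 markers of astrocytes in general, the gap junction gene Gja1 measured 108, 134 and 71.5 CPM after tMCAO and 138, 184 and 202 CPM with celastrol, without overlap (0.74 ± 0.23, SE). Sox9, an astrocyte transcription factor, lay lower without overlap (−0.50, and −0.31 without celastrol replicate 2). These 2 of 14 stand against 7.86% of all genes, and the median of the list was 0.07 (0.23 without tMCAO replicate 2).

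Genes that respond to glucocorticoids included several higher ones. Of 15 tested, 0 passed, 11 lay above 0 and the rest below, the lowest being Mt2 (−0.66). Without overlap 4 lay higher, against 3.73% of all genes, and the median was 0.29. These 4 were the anti-inflammatory leucine zipper gene Tsc22d3, the sulfotransferase gene Sult1a1, the zinc-finger factor gene Zbtb16 and the pyruvate dehydrogenase kinase gene Pdk4. Tsc22d3 measured 58.6, 61.5 and 57.0 CPM after tMCAO and 91.2, 87.5 and 84.1 CPM with celastrol, within close range of each other in both groups (0.57 ± 0.19, SE; unadjusted p = 0.0149, adjusted p = 0.976, edgeR). Sult1a1 measured 21.6, 23.5 and 16.9 CPM against 29.0, 48.8 and 42.4 CPM, and Zbtb16 65.6, 58.5 and 26.0 CPM against 80.7, 81.1 and 92.6 CPM. Without celastrol replicate 2 the 4 genes kept log2 fold changes of 0.57, 0.79, 0.79 and 0.60. The median of the list was 0.07 when tMCAO replicate 3 was left out, 0.10 when celastrol replicate 3 was and 0.43 when celastrol replicate 2 was. Its summed level overlapped, at 1234 to 2452 CPM after tMCAO and 1458 to 2165 CPM with celastrol. Of 16 circadian clock genes 2 lay higher without overlap, the repressor Cry2 (0.37) and the output factor Hlf (0.91), and 1, Cry1, lay lower (−0.26), against 3.73% and 4.13% of all genes, at a median of 0.04 (0.20 without tMCAO replicate 2). The labels do not give the hour at which tissue was taken. Cry1 is outside the rule for named genes, as are Syn1, Rims1 and Alas2 below, and was named after its values were seen.

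Synaptic genes lay slightly higher. Of 23 tested, 21 were above 0, 0 passed and 5 lay higher without overlap, against 3.73% of all genes, at a median of 0.22. The 5 were the postsynaptic scaffold genes Shank3 and Homer1, the active zone genes Bsn and Rims1, and the vesicle gene Syn1. Bsn measured 321, 313 and 388 CPM after tMCAO and 467, 625 and 467 CPM with celastrol (0.61 ± 0.20, SE), with sham at 369.7 to 592 CPM. Without celastrol replicate 2 the median of the list was 0.05, Bsn was at 0.46, Rims1 at 0.24 and Syn1 at 0.05, while Shank3 was at 0.79. Excitatory neuron markers summed to 3660 to 4071 CPM after tMCAO and 3668 to 7607 CPM with celastrol, and their median was 0.29 (−0.03 without celastrol replicate 2). Their part in the synaptic values was not tested. Of 27 axon guidance genes 1 lay higher without overlap (3.73% of all genes did), Plxnb1, a semaphorin receptor, with 79.3, 88.9 and 80.5 CPM after tMCAO and 106, 113 and 133 CPM with celastrol (0.50 ± 0.12, SE).

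Activity-regulated genes were dominated by 1 library. Of 24 immediate early genes 20 lay above 0, 0 passed and 1, Homer1, had groups without overlap (7.86% of all genes did), at a median of 0.57. Npas4, a transcription factor induced by neuronal calcium, measured 5.73, 4.11 and 17.5 CPM after tMCAO and 19.4, 4.89 and 126 CPM with celastrol, and Nr4a3 8.51, 9.09 and 13.5 CPM against 14.4, 7.46 and 125 CPM. Celastrol replicate 3 stood far above the others in both. Without it the median of the list was −0.16, and it was 0.37 and 0.89 with replicate 2 of tMCAO or of celastrol left out and 0.99 with tMCAO replicate 1 left out. Sham replicate 3 was similarly high, since the list summed to 2352 CPM there and to 2348 CPM in celastrol replicate 3, against 590.2 to 1077 CPM in the other 7 libraries. Homer1, which is on this list too, measured 88.9, 67.7 and 110 CPM after tMCAO and 115, 144 and 291 CPM with celastrol. Of 12 feedback genes of ERK signalling 2 lay higher without overlap, against 3.73% of all genes, the ETS factor gene Etv1 (0.71 ± 0.18, SE) and Spred2 (0.36). The median was 0.16, and leaving out celastrol replicate 3 gave −0.12 and celastrol replicate 2 gave 0.36. Etv1 measured 59.98, 61.0 and 54.9 CPM after tMCAO and 71.5, 99.8 and 116 CPM with celastrol.

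**Figure D4:**
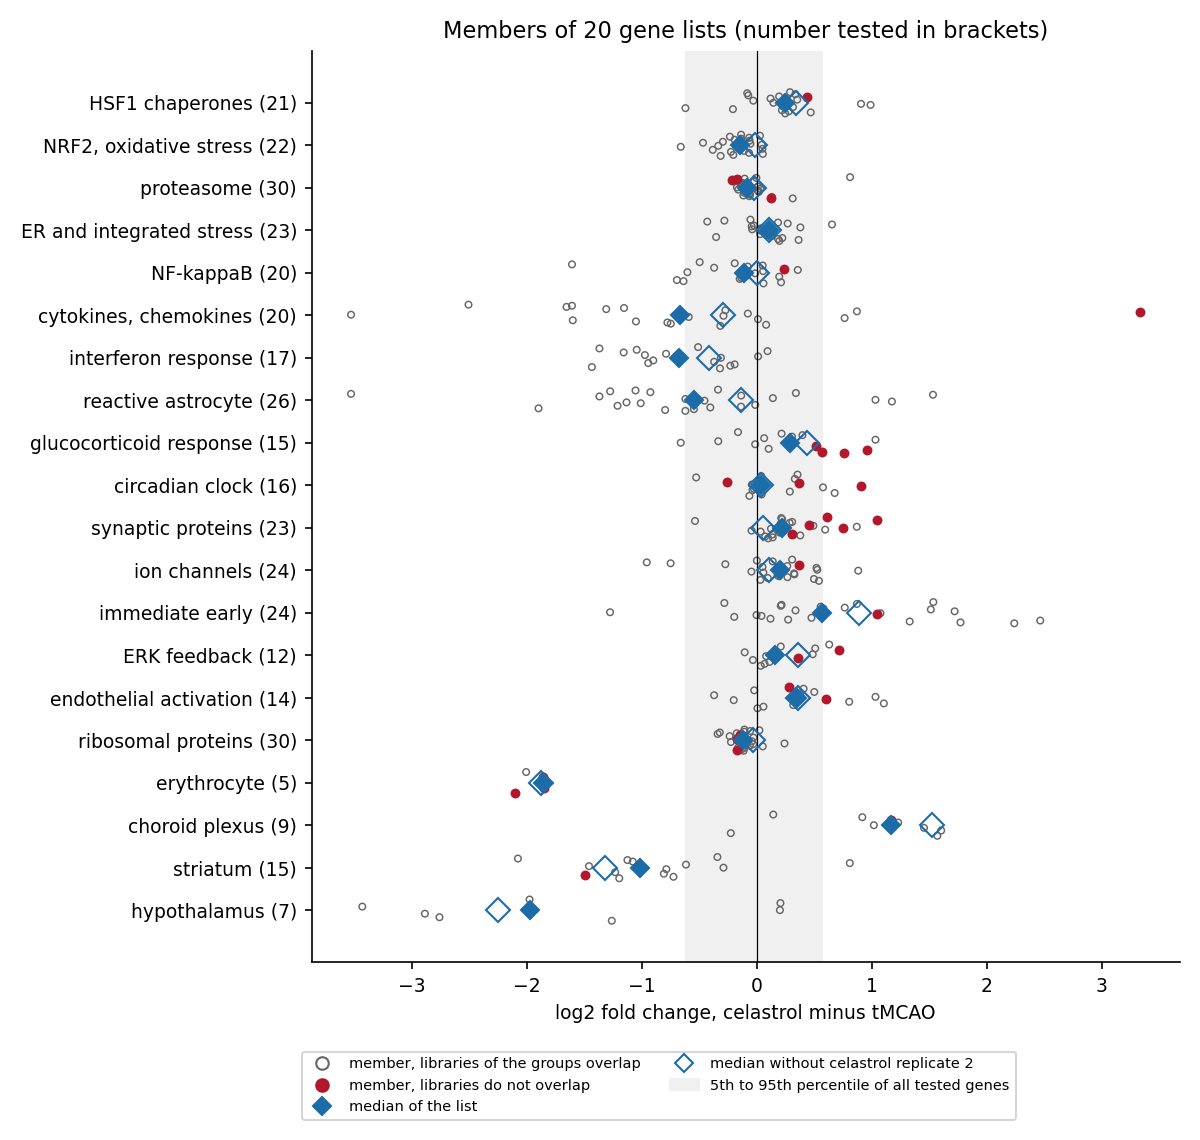
Log2 fold change of celastrol minus tMCAO for the members of 20 gene lists, with filled points for members whose libraries do not overlap, filled diamonds for the list median and open diamonds for the median without celastrol replicate 2. The shaded band spans the 5th to 95th percentile of single tested genes (−0.62 to 0.57) and is no measure for a median. Cytokine members spread from −3.53 to 3.33, whereas the 5 erythrocyte members lie close together between −2.10 and −1.85.

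Genes of red blood cells lay lower with celastrol. Of 8 listed, 5 were tested, and all 5 lay lower at an unadjusted p under 0.05 (1.86% of all genes did). Among the 5, 4 lay lower without overlap (4.13% of all genes did) and 0 passed the adjusted p. Hbb-bs, the adult beta globin, measured 92.9, 39.6 and 196 CPM after tMCAO and 34.7, 31.6 and 24.7 CPM with celastrol, against 63.6 to 119 CPM in sham. Hbb-bt had a log2 fold change of −2.10 ± 0.54 (SE; unadjusted p = 0.00399, adjusted p = 0.976 by edgeR and 0.0415 by DESeq2). The alpha globins Hba-a1 and Hba-a2 both differed by −1.86, and Alas2, the first enzyme of heme synthesis in red cells, by −2.01. These values rested in part on tMCAO replicate 3: without it the log2 fold change was −1.24 for Hbb-bt, −1.13 for Hbb-bs, −1.05 for Hba-a1, −1.06 for Hba-a2 and −1.10 for Alas2, and the median of the list moved from −1.86 to −1.10. The globins are close paralogs and can share reads. The list summed to 93.5, 82.8 and 68.8 CPM with celastrol, below all 3 tMCAO libraries (245, 106 and 556 CPM) and all 3 sham libraries (177 to 323 CPM). The labels do not say whether the mice were perfused before tissue was taken, and the part of blood in the other values was not tested.

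Single libraries stood out for markers of brain regions and of the choroid plexus, which lies in the ventricles and makes cerebrospinal fluid. The choroid plexus list summed to 509, 758 and 162 CPM after tMCAO and 2530, 412 and 752 CPM with celastrol. Of its 9 tested members 1, the lysophospholipase D gene Enpp2, had groups without overlap (7.86% of all genes did), with 226, 252 and 141 CPM after tMCAO and 704, 403 and 283 CPM with celastrol (1.17 ± 0.33, SE, and 0.73 without celastrol replicate 1). Its defining gene Ttr, named for that role, was at 1.39 CPM in tMCAO replicate 3 and 3.53 CPM in celastrol replicate 2 and at 240.2 CPM or more in the other 4 occluded libraries. Of the 9 choroid plexus members, 3 would not have met the FPKM minimum without the tMCAO libraries and 3 not without the celastrol libraries. The choroid plexus median was 1.17. Leaving out tMCAO replicate 3 gave 0.73, celastrol replicate 1 gave −0.19 and celastrol replicate 2 gave 1.52. Striatal markers summed to 421 to 745 CPM with celastrol and 518 to 1333 CPM after tMCAO. Their median was −1.02, and 0.03 without tMCAO replicate 3. Of the 15, only Rgs9, a regulator of dopamine receptor signalling, had groups without overlap, against 7.86% of all genes (−1.50, and −0.90 without tMCAO replicate 3). Hypothalamic markers summed to 197 CPM in tMCAO replicate 1 and at most 35.5 CPM in the other 8 libraries. Their median was −1.98, and 0.22 without tMCAO replicate 1. Of the 7 tested hypothalamic markers, 3 would not have met the FPKM minimum without the tMCAO libraries and 3 not without the celastrol libraries. Thalamic markers summed to 1213 CPM in tMCAO replicate 2 and to 288 to 755 CPM in the other 5 occluded libraries. The part of these markers in the differences of other genes was not tested.

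**Figure D5:**
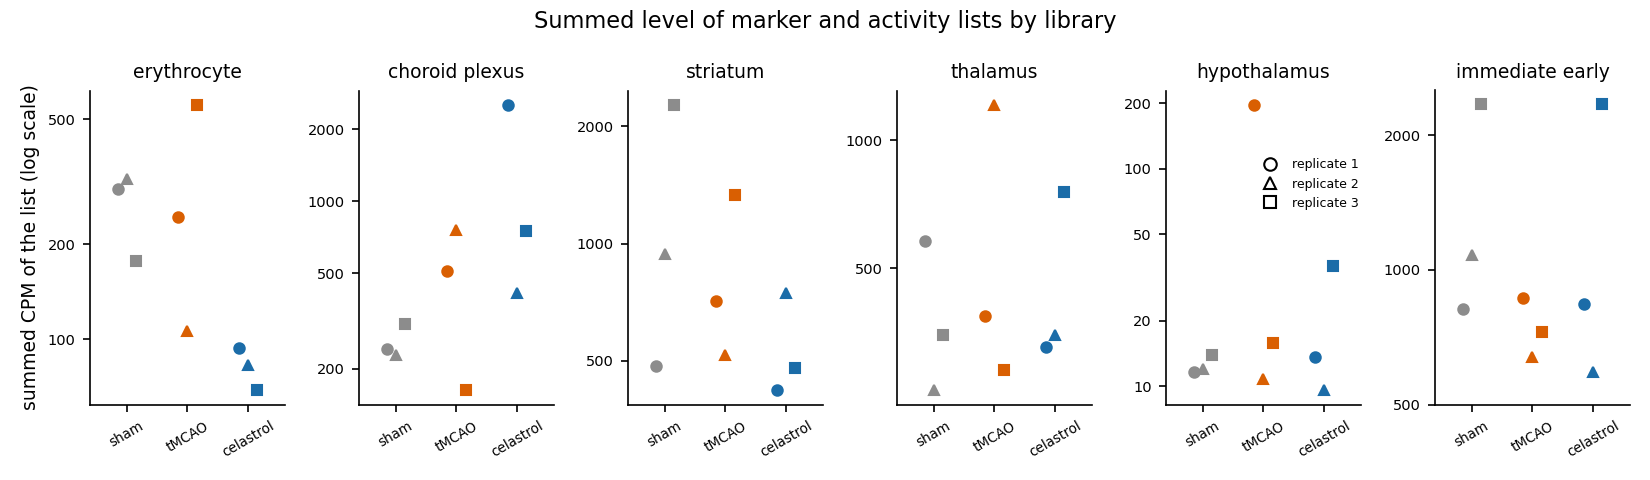
Summed CPM of 6 lists in each library on log axes, by group, with replicates as marker shapes. The erythrocyte sums of the 3 celastrol libraries (68.8 to 93.5 CPM) lie below all other libraries, while single libraries stand out for choroid plexus, thalamus, hypothalamus and immediate early genes.

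Immune cell markers gave few differences. Of 9 tested neutrophil markers, out of 16 listed, 1 had groups without overlap (7.86% of all genes did), the granule protein gene Ngp. It measured 0.11, 0.58 and 0 CPM after tMCAO and 6.08, 1.78 and 5.49 CPM with celastrol. Ngp reached the FPKM minimum in the 3 celastrol libraries and in 0 others, so the filter kept it through the group where it is high and its lack of overlap supports nothing. Of the 9, 6 would not have met that minimum without the celastrol libraries. The neutrophil list summed to 27.4 to 34.0 CPM after tMCAO and 27.8 to 54.0 CPM with celastrol. Of 14 homeostatic microglia markers the transcription factor gene Sall1 lay lower (−0.35) and the phagocytic receptor gene Mertk higher (0.39, and 0.22 without celastrol replicate 2), both without overlap, against 7.86% of all genes. Of 18 activated microglia and macrophage markers and of 10 monocyte and macrophage markers 0 had groups without overlap, at medians of −0.16 and 0.15. The sign of both turned with 1 library left out, the first to 0.19 without tMCAO replicate 3 and the second to −0.13 without tMCAO replicate 2, and without celastrol replicate 2 they were −0.01 and 0.45. Of the 18 activated markers, 3 would not have met the FPKM minimum without the tMCAO libraries. Of 14 genes of activated endothelium 2 lay higher without overlap (3.73% of all genes did), Ackr1, a chemokine receptor of venules (0.28), and Lrg1, a secreted glycoprotein (0.60, and 0.34 without tMCAO replicate 2). The median was 0.34, and leaving out tMCAO replicate 2 gave 0.12 and celastrol replicate 1 gave 0.14. Of these 14 genes, 3 would not have met the FPKM minimum without the tMCAO libraries and 3 not without the celastrol libraries. Of 16 complement genes 1, Cfb, lay higher without overlap (0.63). Of 30 ribosomal protein genes 4 lay lower without overlap (4.13% of all genes did), with 27 below 0. Their median was −0.12, and leaving out celastrol replicate 2 gave −0.04, tMCAO replicate 3 gave −0.05 and celastrol replicate 1 gave −0.19.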

How the data were processed

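Total RNA from the ischemic hemisphere, depleted of ribosomal RNA, was sequenced in read pairs, per the labels' protocols, in 3 sham, 3 tMCAO and 3 celastrol libraries. The authors deposited 1 table with estimated counts and FPKM values for each gene. The submitters' processing notes name mm10 and the tools cutadapt 1.9, StringTie 1.3.4d, HISAT2 2.0.4, DESeq2 and edgeR, without their settings or strand use. The estimated counts are whole numbers and were used as they stand.

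A single fit over the 9 libraries had a mean for each group (edgeR 4.0.16 in R 4.3.3, TMM scaling, quasi-likelihood test, two-sided, Benjamini-Hochberg over 16982 genes), so that the groups share 1 estimate of the spread (common dispersion 0.0963). The script was tested on simulated counts. The SE, an approximation, is the size of the log2 fold change over the root of F. Alternatives were DESeq2 1.42.0, other scalings, other filters, the 6 libraries alone, a replicate block, limma 3.58.1 on log2(FPKM + 0.5 or 0.1) and leaving out each library.

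Members and gene lists were chosen with earlier results of these data known. Genes were named as the 12 with the smallest p in each direction and 3 long non-coding genes in each direction. Up to 4 per list by smallest p and all reported celastrol targets were added. Others are marked. For 118 symbols found on several rows, that of highest mean count was named. The floor of 3 counts and the intervals cover counting error only. Replicates all differed beyond sampling noise (smallest chi-square over its degrees of freedom 84.7). Libraries held 60392960 to 75158625 estimated counts.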

Additional observations from a re-analysis of the deposited data

How the results depend on the processing

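The counts of genes past the adjusted threshold were 0 higher, 0 lower and 0 long non-coding by edgeR with TMM scaling. DESeq2 gave 12 higher and 7 lower (adjusted p NA for 355 genes), and with 1 library left out the count of higher genes ran from 0 to 2. Other scalings, filters and models gave 0. Same-numbered celastrol and tMCAO libraries had deviations from their group means correlated at 0.20, 0.09 and −0.05, and 2 of 3 celastrol libraries correlated best with their own number, and since not every correlation was above 0.1 the numbers were not taken as pairs. With the replicate block 0 genes passed, and 440 higher and 396 lower were at an unadjusted p under 0.05, against 382 and 316. With no filter (33952 genes) these were 576 and 518; they ran from 261 to 576 and from 197 to 521 with 1 library left out. With 1 library left out the log2 fold change changed sign for Lepr (−0.062 to 0.68), Prdx2 (−0.12 to 0.014), Prdx1 (−0.41 to 0.12), Il1r1 (−0.38 to 0.52), Sirt1 (−0.12 to 0.070), Ppargc1a (−0.10 to 0.031), Psmb5 (−0.065 to 0.050), Hspa1a (−0.27 to 1.43), Hspa1b (−0.046 to 1.49), Hmox1 (−1.79 to 0.13), Cx3cr1 (−0.96 to 1.64) and Ttr (−0.19 to 2.51). The log2 fold change of Psmb5 was also at −0.00677 under upper-quartile scaling and at −0.033 in limma with either pseudocount. The cause was not tested. With an FPKM minimum of 1, Cxcl10, Gm18666, Gm20511, Gm47962, Il1a, Lepr, Npsr1, Rtl9 and Usp18 left the test and have no value. Genes under about 1 CPM rest on fewer counts, down to the floor of 3 counts at 0.04 to 0.05 CPM.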
